A study of Mus musculus with 16 samples.

Results

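The complement and coagulation systems are described here through 40 genes of the plasma cascades, 20 of complement and 20 of clotting and its inhibitors, out of 22322 genes in the deposited tables. The members were chosen by symbol from general knowledge of the cascades and not by a rule on their measured values, although earlier results of these data were known. All 40 symbols were found in both tables. The series profiled polyadenylated RNA of mice with diet-induced obesity (DIO) that received either vehicle or halofuginone, an inhibitor of prolyl-tRNA synthetase, at 100 μg/kg by intraperitoneal injection every 2 days for 8 weeks. Liver was measured in 5 vehicle libraries (labelled HFD) and 5 halofuginone libraries (labelled H100), and white adipose tissue in 3 and 3. Both groups were labelled as DIO mice, so each comparison is of drug with vehicle on that background, and no lean group was analysed here. Body weight was not among the values used, so a weight difference between the groups at collection cannot be told apart from other drug effects. The labels carry the group name in a genotype field although it denotes a treatment, and they give no strain, sex, age or fat depot. They do not say whether each library came from a separate animal, so p-values measure the spread between these libraries, which may in part be technical.

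Complement is a chain of plasma proteases and binding proteins that marks microbes and dying cells. It is started by C1q (classical route) or by mannose-binding lectins with the MASP proteases (lectin route), converges on C3, and ends in the pore formed by the terminal components. Coagulation is a parallel protease chain that ends in thrombin, which cuts fibrinogen to fibrin, and it is held in check by antithrombin, heparin cofactor II and the protein C and protein S pair. Hepatocytes make most of these proteins and several are acute-phase reactants, whereas C1q is made mainly by macrophages and factor V also by cells outside the liver.

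Liver libraries held 20309956 to 31980683 counts and fat libraries 17070614 to 21387799. Expression is given as CPM (counts relative to the library total, adjusted by TMM, edgeR's normalization between libraries) when 1 gene is followed across libraries, and as FPKM (the authors' values, scaled by gene length) when genes are set side by side. In liver the library labelled halofuginone replicate 1 stood apart from the other 4 of its group: 47.5% of the 12311 genes tested lay outside the range of the 5 vehicle livers in it, against 61.3 to 66.9% in the others. That library also had the smallest total, and it carried the lowest summed level of 9 acute-phase markers (7552 CPM, against 7780 to 11503 in vehicle and 16479 to 70048 in halofuginone replicates 2 to 5). Liver results are therefore given with it and without it. It was singled out by its measured values, and the labels give no reason to omit it. By that share it was the treated liver nearest to vehicle, and omitting such a library tends to lower p-values. Those from the fit without it are therefore descriptive and may be too small. Hepatocyte markers summed to 110658 to 126851 CPM in vehicle liver, and all 5 adipocyte markers passed the filter in fat. In fat the hepatocyte markers summed to 2797 to 4845 CPM in vehicle and 2678 to 4522 under halofuginone. That sum was mostly Hp (2675 to 4839 CPM over the fat libraries), while Alb, the serum albumin of hepatocytes, reached at most 4.59 CPM. Of the remaining marker lists in liver, 1 of 6 hepatocyte transcription factors and 2 of 4 fibroblast markers were called lower. The single mesothelial marker tested was not called, and 10.5% of all genes tested in liver were called lower. In fat the summed fibroblast markers were at 2392 to 3888 CPM in vehicle and 1011 to 1326 under halofuginone, and none of any list was called there.

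Without drug the members spanned a wide range in liver, from 1.50 FPKM for F3 (tissue factor, the cell-bound trigger of clotting) to 2791 FPKM for Fga (the fibrinogen alpha chain). The highest levels by FPKM, as mean ± SD of 5 livers, were Fga at 2791 ± 679, Fgg (fibrinogen gamma chain) at 2688 ± 504, C3 (the central complement component) at 1910.3 ± 322, Serpinc1 (antithrombin) at 1515 ± 101 and Fgb (fibrinogen beta chain) at 1479.5 ± 265. In this order Fga and Fgg, and Serpinc1 and Fgb, differed by less than the larger of their SDs, whereas Fgg and C3, and C3 and Serpinc1, differed by more. In vehicle fat the order was another: C3 led at 592 ± 238 FPKM, followed by C1qb at 561 ± 70.1, C1qc at 472 ± 41.8 and C1qa at 442 ± 13.8 (the chains of C1q) and Serping1 (C1 inhibitor) at 342 ± 66.9. C3 and C1qb, and C1qc and C1qa, again differed by less than the larger of their SDs over 3 libraries. A total of 15 members reached 1 FPKM in vehicle fat, and 8 had a higher mean FPKM there than in vehicle liver (C1qa, C1qb, C1qc, C2, C4b, Cfp, F3 and Pros1), in tables that were normalized separately. Fibrinogen, prothrombin (F2), the contact factors and C8a and C8b were listed at or near 0 in fat.

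**Figure D1:**
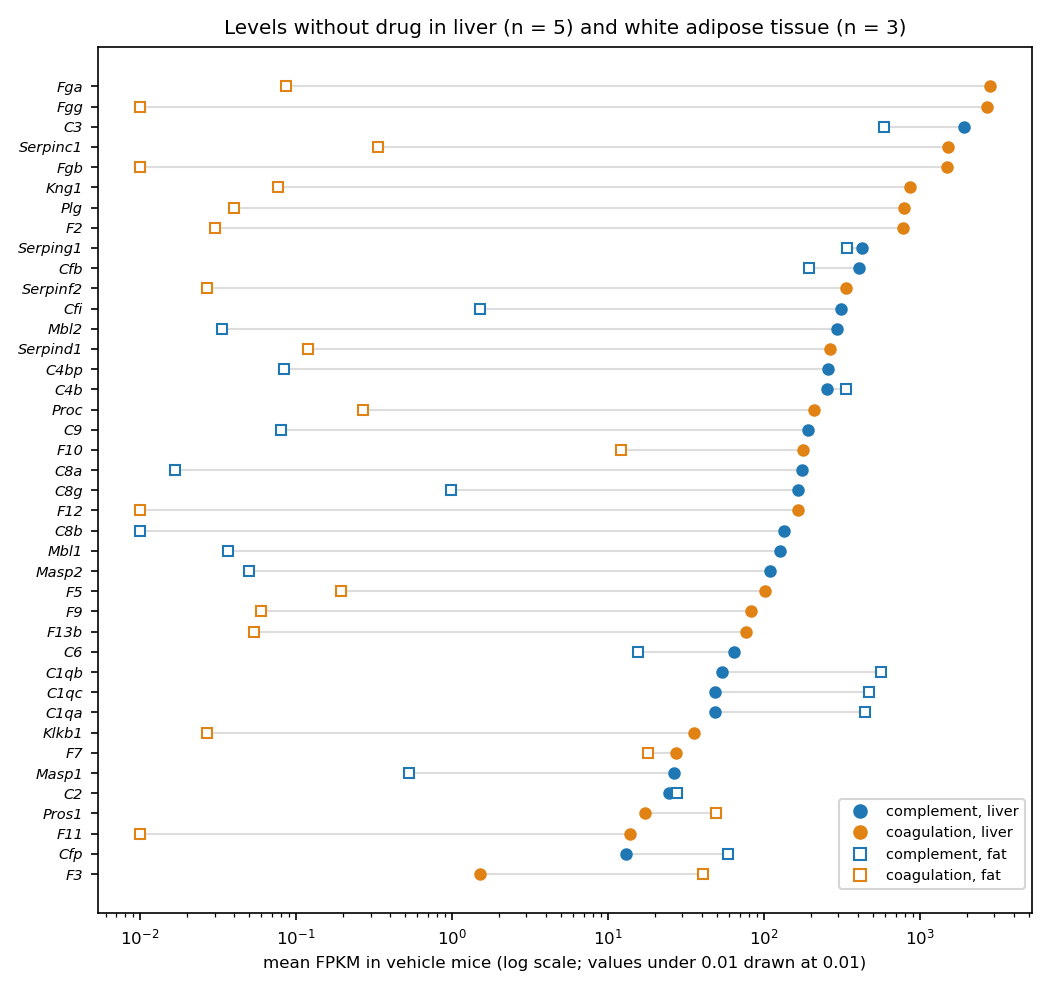
Mean FPKM of the 40 members in vehicle liver (filled circles, n = 5) and vehicle white adipose tissue (open squares, n = 3) on a log axis, ordered by the liver level, with complement in blue and coagulation in orange. The 3 C1q chains, C2, C4b, Cfp, F3 and Pros1 have the square to the right of the circle.

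Under halofuginone, liver expression of C3 and of C4bp (C4b-binding protein, an inhibitor of the classical and lectin routes) rose and that of Masp2 (the protease that cuts C4 and C2 in the lectin route) fell. No other member passed the test in all 10 livers, so 3 of 40 members were called (7.5%), where 23.2% of the 12311 genes tested were called (12.7% higher and 10.5% lower). Calls here mean an adjusted p under 0.05, from the quasi-likelihood test of edgeR after Benjamini-Hochberg correction over every gene tested, and each adjusted p below is of that kind unless another tool is named. All 3 called genes were complement genes (2 higher and 1 lower of 20), and 0 of the 20 coagulation genes were called, of which 4 had an unadjusted p under 0.05 (1 higher and 3 lower). Over all 40 members 5 higher and 6 lower had an unadjusted p under 0.05, where 39.1% of all genes tested did (21.1% higher and 18% lower). The median log2 fold change was 0.040 over the complement members and −0.053 over the coagulation members, against 0.017 over all genes tested, and 20 of the 40 members lay above 0. With libraries scaled by their totals alone, the median of all genes moved to 0.17, with 2789 genes called higher and 838 lower, and the members' medians moved to 0.19 and 0.10, so the sign of the coagulation median depends on the scaling. With DESeq2 as the test 7 members were called (C3 and C4bp higher, and Masp2, C8g, C9, F13b and Pros1 lower), where 22.1% of the 16566 genes with a p-value were (11.5% higher and 10.5% lower). Such totals include any gene that the filter of DESeq2 left without an adjusted p, so these shares may be too low.

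**Figure D2:**
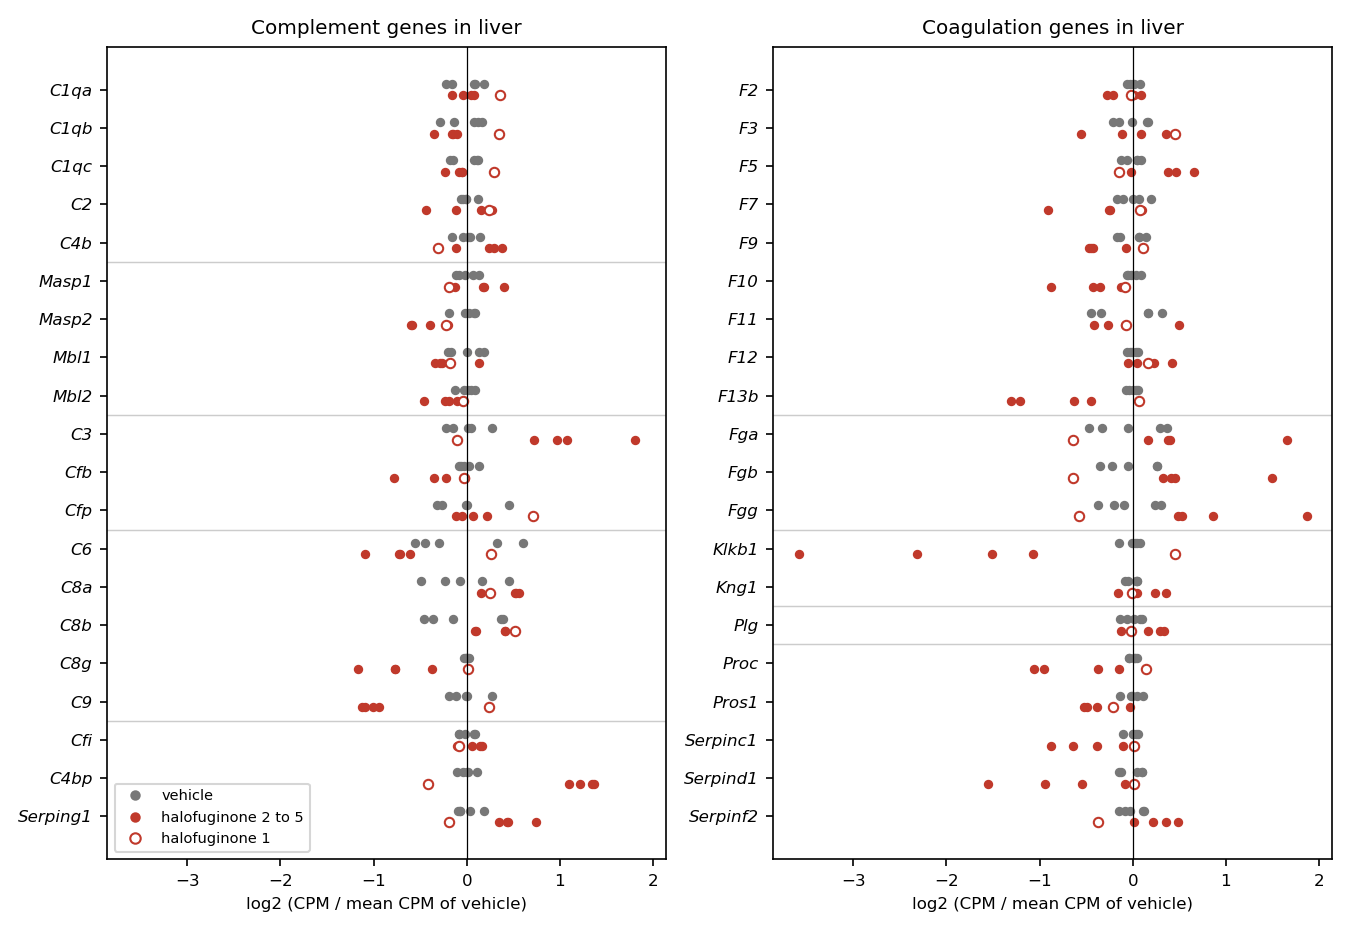
Level of each member in each liver library as log2 of its CPM over the vehicle mean, for complement (left) and coagulation (right), with vehicle in grey, halofuginone replicates 2 to 5 in filled red and halofuginone replicate 1 as an open circle; grey lines separate the roles. C3 and C4bp have 4 filled red points to the right of the vehicle points, and Klkb1, C9 and F13b have 4 to the left, while the open circle stays near or beyond the vehicle points on the other side.

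C3, cut by the convertases of all 3 routes, measured 11134, 7905, 9525, 8321 and 9311 CPM in the 5 vehicle livers and 8592, 32329, 19544, 18106 and 15272 CPM in halofuginone replicates 1 to 5. The first of these lay inside the vehicle range and the other 4 above it, with replicate 2 the highest. The means were 9239 ± 1255 and 18768 ± 8671 CPM (SD, n = 5 each), which is 2.03-fold higher (log2 fold change 1.02 ± 0.31 SE, adjusted p = 0.0361). C4bp measured 681, 657, 674, 629 and 728 CPM in vehicle and 506, 1560.5, 1705, 1445 and 1731 CPM under halofuginone, so that the groups overlapped only through replicate 1, which lay below every vehicle liver. It was 2.06-fold higher (log2 fold change 1.04 ± 0.27 SE, adjusted p = 0.0230). Masp2 measured 166, 174, 143, 162 and 173 CPM in vehicle and 140.0, 108, 109, 142 and 124 CPM under halofuginone. All 5 halofuginone livers lay below all 5 vehicle livers, replicate 1 included. Masp2 was 1.31-fold lower (log2 fold change −0.39 ± 0.11 SE, adjusted p = 0.0289). Groups did not overlap for 2 of 40 members (5%, Masp2 and F10, both lower), against 11.7% of all genes tested in liver (5.13% higher and 6.55% lower).

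The calls of C3, C4bp and Masp2 were close to the threshold. Leaving out any 1 library other than halofuginone replicate 1 took the adjusted p of C3 to 0.0552 to 0.0900. C4bp lost its call when vehicle library 2 or 4, or halofuginone library 3 or 5, was omitted. Masp2 kept its call only when vehicle library 3, or halofuginone library 1 or 4, was omitted. Without halofuginone replicate 1 the log2 fold changes were 1.18 (adjusted p = 0.00278) for C3, 1.24 (adjusted p = 2.46e-05) for C4bp and −0.46 (adjusted p = 0.00537) for Masp2. With replicate 1 kept and 1 other library left out instead, the adjusted p reached 0.0900, 0.0578 and 0.0800 in the same order.

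The stretch of 250 bases before the annotated start of these 3 genes is shown because they are the members that were called in liver. The sequences are RefSeq's for GRCm38.p6, a different build from the mm39 named in the submitters' processing notes, and run 5′ to 3′ on the gene's strand. They lie at chr17:57228137-57228386 (minus strand, C3), chr1:130661619-130661868 (minus strand, C4bp) and chr4:148602294-148602543 (plus strand, Masp2). Capitals mark exact matches, on either strand and not overlapping each other, to TTGCNNAAT (a C/EBP variant) in C3, GTTAAT (the HNF1 core) in C4bp and TTCNNNGAA (STAT) in Masp2.
C3: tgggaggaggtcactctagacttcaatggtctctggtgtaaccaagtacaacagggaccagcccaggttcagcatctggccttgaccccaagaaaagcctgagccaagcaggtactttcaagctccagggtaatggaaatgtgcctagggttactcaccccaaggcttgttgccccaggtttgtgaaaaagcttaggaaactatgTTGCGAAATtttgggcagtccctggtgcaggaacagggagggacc
C4bp: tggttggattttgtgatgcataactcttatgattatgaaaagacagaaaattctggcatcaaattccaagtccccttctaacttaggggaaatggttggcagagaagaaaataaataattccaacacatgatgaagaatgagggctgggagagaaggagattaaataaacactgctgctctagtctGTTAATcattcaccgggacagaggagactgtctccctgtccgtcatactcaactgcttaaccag
Masp2: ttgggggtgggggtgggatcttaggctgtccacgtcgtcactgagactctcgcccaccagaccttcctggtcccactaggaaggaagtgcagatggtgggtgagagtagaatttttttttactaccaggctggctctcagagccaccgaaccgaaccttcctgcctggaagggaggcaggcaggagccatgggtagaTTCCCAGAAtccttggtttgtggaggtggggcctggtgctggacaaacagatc
The match in C3 begins 45 bases before the start, that in C4bp 64 and that in Masp2 53. Of all 32851 promoter windows of this length in the table, 2.11% hold the C/EBP variant, 6.43% the HNF1 core and 7.02% the STAT letters. A match describes letters in the window and is not evidence of binding.

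Of the classical route, none of the 5 liver members was called. C1qa, C1qb and C1qc, the chains of the C1q recognition molecule, had log2 fold changes of 0.063 ± 0.12, −0.064 ± 0.14 and −0.017 ± 0.11 (SE). C1qa measured 60.8, 45.8, 56.3, 56.7 and 47.9 CPM in vehicle and 68.6, 51.9, 55.0, 56.3 and 47.8 CPM under halofuginone, with replicate 1 the highest. C1qb measured 69.2, 50.5, 65.0, 67.2 and 56.1 CPM and 78.6, 55.5, 57.2, 55.2 and 48.3 CPM, and C1qc 66.7, 54.7, 67.1, 65.5 and 55.8 CPM and 75.8, 58.4, 59.6, 59.9 and 52.6 CPM, again with replicate 1 on top. With libraries scaled by their totals alone C1qb and C1qc turned to 0.086 and 0.14. For these chains replicate 1 lay above all vehicle livers, and the summed level of 12 macrophage markers was also highest in it (1160 CPM, against 645 to 937 in vehicle and 642 at the lowest under halofuginone); the part of those cells in the values was not tested. C2, the protease subunit of the classical convertase, had a log2 fold change of 0.044 and C4b, its partner, 0.12. C4b has a near-identical paralog, C4a, that was not analysed here, so its counts are uncertain. In the lectin route Masp1, which activates Masp2, had a log2 fold change of 0.10, and the mannose-binding lectins Mbl1 and Mbl2 −0.18 and −0.20, none of them called. Cfb, the protease of the alternative convertase, had −0.26 and Cfp (properdin, which stabilizes it) 0.20, also not called.

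The terminal components, which assemble into the membrane pore, divided in direction although none was called in all 10 livers. C9, the pore-forming unit, measured 390.0, 387, 469.6, 342 and 359 CPM in vehicle and 461, 179, 203, 182 and 194 CPM under halofuginone (log2 fold change −0.68 ± 0.26 SE, adjusted p = 0.0762). Replicate 1 was near the top of the vehicle range and the other 4 were all below it. C8g, the lipocalin-like gamma chain of C8, was steady in vehicle at 201, 205, 198, 201 and 204 CPM and measured 203, 89.7, 119, 156 and 119 CPM under halofuginone (log2 fold change −0.56 ± 0.19 SE, adjusted p = 0.0503), with replicate 1 inside the vehicle range. C6, which joins C5b early in the assembly, had a log2 fold change of −0.50, whereas C8a and C8b, the other chains of C8, had 0.41 and 0.32. Without halofuginone replicate 1, C9 was at −1.06 (adjusted p = 7.51e-05), C8g at −0.76 (adjusted p = 0.00144) and C6 at −0.80 (adjusted p = 0.0203) on the log2 scale. C8a and C8b were not called in that fit. With replicate 1 kept and 1 other library left out instead, the adjusted p of C9, C8g and C6 reached 0.166, 0.122 and 0.444. Of the complement inhibitors, Serping1, which blocks C1 and the MASPs as well as plasma kallikrein, had a log2 fold change of 0.38 (adjusted p = 0.110) with all livers. Without replicate 1 Serping1 had 0.48 (adjusted p = 0.00986), and with 1 other library left out instead its adjusted p reached 0.224. Cfi, the protease that inactivates C3b and C4b, had 0.035 and was not called either way.

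The fibrinogen chains were among the most abundant coagulation transcripts, and their 3 log2 fold changes were above 0 without passing the test. Fgg measured 5713, 4207, 5988, 3729.7 and 4538 CPM in vehicle and 3230.3, 17628, 8781, 6990.1 and 6790.2 CPM under halofuginone (log2 fold change 0.84 ± 0.37 SE, adjusted p = 0.117). Fga measured 8006, 4940.0, 7605, 4471 and 5967 and 3975, 19568, 8174, 8085 and 6947 CPM (log2 fold change 0.59 ± 0.37 SE, adjusted p = 0.261). Fgb measured 7128, 5110.4, 7144, 4676 and 5748 and 3834, 16762, 8168, 7490.1 and 7932 CPM (log2 fold change 0.57 ± 0.33 SE, adjusted p = 0.226). In each chain replicate 1 was below every vehicle liver and replicate 2 was above all other libraries. Without replicate 1 the log2 fold changes of Fgg, Fgb and Fga were 1.03 (adjusted p = 0.0170), 0.73 (adjusted p = 0.0480) and 0.76 (adjusted p = 0.0825). With replicate 1 kept and 1 other library left out instead, their adjusted p reached 0.315, 0.614 and 0.774 in the same order. These genes moved beside other acute-phase transcripts. All 9 acute-phase markers tested had log2 fold changes above 0, with a median of 1.99. Of these markers 5 were called higher, where 12.7% of all genes tested were. The summed level of the 9 was 70048 CPM in replicate 2. The markers were not alike across livers. Hp, Hpx, Orm1 and Fgl1 lay above every vehicle liver in replicates 2 to 5. Saa1, Saa2 and Orm2 did so in replicates 2 and 3 only, Lcn2 in replicates 2, 3 and 5, and Crp in replicate 2 only. Saa1 measured 57.2 to 353 CPM in vehicle and 38.3, 5794, 1037, 69.2 and 37.3 CPM in halofuginone replicates 1 to 5. Whether the acute-phase shift has a part in the fibrinogen and C3 values was not tested.

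The 3 fibrinogen genes are neighbours on chromosome 3, and the 250 bases before each start are shown because their levels moved together across livers. On GRCm38.p6 the windows are chr3:83025903-83026152 (plus strand, Fga), chr3:83049864-83050113 (minus strand, Fgb) and chr3:83007474-83007723 (plus strand, Fgg), again from RefSeq. Capitals mark matches to GTTAAT (HNF1 core), TTGCNNCAA (C/EBP), TTGCNNAAT (its variant) and TTCNNNGAA (STAT) on either strand.
Fga: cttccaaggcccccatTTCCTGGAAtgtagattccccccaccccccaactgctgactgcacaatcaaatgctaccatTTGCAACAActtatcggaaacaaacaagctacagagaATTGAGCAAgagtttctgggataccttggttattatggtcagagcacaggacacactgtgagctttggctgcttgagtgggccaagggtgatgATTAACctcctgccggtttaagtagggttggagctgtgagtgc
Fgb: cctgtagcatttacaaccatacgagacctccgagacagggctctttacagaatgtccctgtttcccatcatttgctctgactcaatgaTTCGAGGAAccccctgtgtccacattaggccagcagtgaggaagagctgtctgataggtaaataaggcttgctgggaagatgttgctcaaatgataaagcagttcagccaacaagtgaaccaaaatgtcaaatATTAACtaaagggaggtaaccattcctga
Fgg: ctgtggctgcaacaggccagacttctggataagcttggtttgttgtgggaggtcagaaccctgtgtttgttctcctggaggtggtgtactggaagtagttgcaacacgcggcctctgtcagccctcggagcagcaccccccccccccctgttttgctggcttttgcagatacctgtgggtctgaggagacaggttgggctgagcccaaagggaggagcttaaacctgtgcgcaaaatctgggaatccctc
Fga holds a match to each of the 4 motifs and Fgb to the HNF1 core and STAT, while none of these letters is in the Fgg window, which says nothing of the factors themselves. The HNF1 core match begins 43 bases before the start in Fga and 29 in Fgb. Of the 30 members with a promoter in the table, 7 hold the HNF1 core (23.3%, C4bp, F13b, Fga, Fgb, C8a, C8b and Cfp, against 6.43% of all windows) and 6 hold STAT letters (20%). TTGCNNCAA was found in 2 of the 30 (6.67%, against 1.74% of all windows) and its variant in 4 (13.3%). The whole HNF1 palindrome, the C/EBP-ATF letters TGATGNAAT and the HNF4 letters CAAAGTCCA were in 0 of the 30, and in 0.00913%, 0.816% and 0.384% of all windows.

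Among the contact proteins and clotting factors the largest differences were lower levels of Klkb1 and F13b in 4 of the 5 halofuginone livers. Klkb1, plasma prekallikrein of the contact system, measured 204, 197, 202, 179 and 208 CPM in vehicle and 271, 16.5, 39.9, 94.6 and 69.4 CPM under halofuginone (log2 fold change −1.01 ± 0.55 SE, adjusted p = 0.198). Replicate 1 was above and the other 4 were below every vehicle liver, replicate 2 the farthest. Without replicate 1 Klkb1 was 3.64-fold lower (log2 fold change −1.87 ± 0.39 SE, adjusted p = 0.00317). With replicate 1 kept and 1 other library left out instead, the adjusted p of Klkb1 reached 0.352. Its partner Kng1, the kininogen that carries bradykinin, had 0.11 on the log2 scale, with counts that may be shared with its paralog Kng2. F13b, the carrier subunit of the fibrin-crosslinking factor XIII, measured 196, 199, 186, 183 and 192 CPM and 200.0, 77.1, 82.8, 141 and 124 CPM (log2 fold change −0.62 ± 0.23 SE, adjusted p = 0.0685). Without replicate 1 its log2 fold change was −0.87 (adjusted p = 0.00221), and with 1 other library left out instead its adjusted p reached 0.153. F10, the protease that activates prothrombin, measured 357, 346, 349, 368 and 382 CPM in vehicle and 341, 268, 196, 331 and 283 CPM under halofuginone, all 5 below vehicle (log2 fold change −0.34 ± 0.15 SE, adjusted p = 0.104). The log2 fold changes of the other factors were −0.073 for F2 (prothrombin), 0.085 for F3, 0.30 for F5 (the cofactor of F10), −0.21 for F7, −0.24 for F9, −0.033 for F11 and 0.17 for F12, and none was called. Of these, F9 was called lower without replicate 1, at −0.37 (adjusted p = 0.0244). With replicate 1 kept and 1 other library left out instead, its adjusted p reached 0.413.

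All 4 inhibitors of clotting (Serpinc1, Serpind1, Proc and Pros1) had log2 fold changes below 0, and none was called in all 10 livers. Serpinc1, antithrombin, measured 1852, 1819, 1679, 1816 and 1885 CPM in vehicle and 1826, 1162, 988, 1687 and 1388 CPM under halofuginone (log2 fold change −0.36 ± 0.18 SE, adjusted p = 0.155). Replicate 1 lay within the vehicle range, and the 3 lowest livers were halofuginone replicates. Serpind1, heparin cofactor II, had a log2 fold change of −0.51 (adjusted p = 0.156), Proc, the anticoagulant protease protein C, −0.41 (0.172), and Pros1, its cofactor protein S, −0.32 (0.0509). Serpinf2, the inhibitor of plasmin, had 0.17, and Plg, the plasmin precursor, 0.14. Without replicate 1, Serpinf2 was not called. All 4 inhibitors of clotting were called lower in that fit, where 21.6% of all genes tested were. Their log2 fold changes were −0.70 for Serpind1, −0.60 for Proc, −0.49 for Serpinc1 and −0.37 for Pros1. With replicate 1 kept and 1 other library left out instead, their adjusted p reached 0.265, 0.353, 0.323 and 0.128 in the same order.

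**Figure D3:**
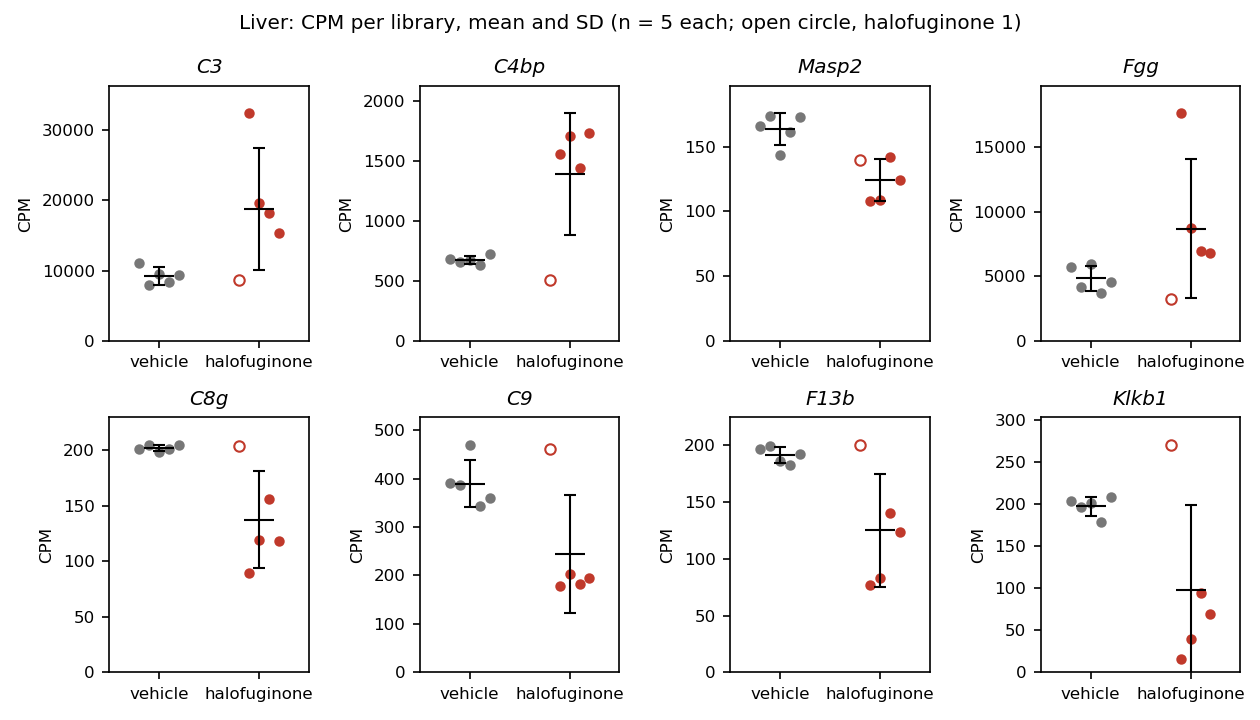
CPM in each liver library for 8 members, with the mean and SD of 5 libraries per group, vehicle in grey and halofuginone in red; the open circle is halofuginone replicate 1, the axes start at 0 and the lower SD bar of Klkb1 ends at the axis. In C3, C4bp and Fgg the filled red points lie above the vehicle points, in C9, F13b and Klkb1 below them, and the open circle does not follow, and Masp2 alone has all 5 red points below.

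Complement and coagulation were compared by their counts with and without halofuginone replicate 1, a library singled out by its measured values. Without it, 17 of the 40 members were called (5 higher and 12 lower), where 42.8% of the 12422 genes tested were called (21.2% higher and 21.6% lower). Complement held 7 of these (3 higher, C3, C4bp and Serping1, and 4 lower, Masp2, C6, C8g and C9) and coagulation 10 (2 higher, Fgb and Fgg, and 8 lower). By role, 2 of 3 fibrinogen chains and 2 of 3 complement inhibitors were called higher. All 4 inhibitors of clotting, 3 of 9 clotting factors and 3 of 5 terminal components were called lower. Of the 5 classical components 0 were called. The median log2 fold changes of the 2 classes were then −0.036 and −0.078, and the difference between the classes was not tested. The number of genes called over the whole table also changed with this library, from 2850 to 5312. The marker levels changed alongside: the summed level of 9 hepatocyte markers was 47072 to 89087 CPM in halofuginone replicates 2 to 5 and 105815 in replicate 1. That sum is mostly Alb (mean 94154 CPM in vehicle and 51781 under halofuginone), and Hp is in both this list and the acute-phase list. Over all livers 7 of the 9 hepatocyte markers had log2 fold changes below 0 and 2 above. Of them 3 were called lower and 1 higher, where 10.5% of all genes tested were called lower and 12.7% higher. The part of hepatocyte markers in the lower clotting transcripts was not tested.

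Ratios of 2 members within a library do not depend on the scaling of libraries, so 8 ratios of subunits or partners were compared in liver by exact two-sided permutation tests, adjusted by Benjamini-Hochberg over the 8. The ratio of C8g to C8b, chains of 1 protein, was 0.514 times its vehicle value (log2 difference −0.96, exact p = 0.00794, adjusted 0.0317). All 5 halofuginone livers, replicate 1 included, were below all 5 vehicle livers. In replicate 1 C8g was inside its vehicle range (203 CPM, against 198 to 205). Its low ratio there went with a high C8b (459 CPM, against 233 to 421 in vehicle). By FPKM the geometric mean ratio of C8g to C8b went from 1.26 to 0.647. The ratio of Fgg to Fgb was 1.17-fold higher (exact p = 0.00794, adjusted 0.0317, all 5 above). The gap between the groups was narrow: the highest vehicle log2 ratio was −0.255 and that of halofuginone replicate 1 was −0.247. The exact p of 0.00794 is the smallest that 5 against 5 libraries can give. Masp1 to Masp2 was 1.40-fold higher and C1qa to C1qb 1.10-fold higher, each in 4 of 5 livers (exact p = 0.0238 and adjusted 0.0476 for both). Fga to Fgb (log2 difference −0.00048), C8a to C8b (0.088), C1qc to C1qb (0.052) and Mbl1 to Mbl2 (0.024) did not pass.

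In white adipose tissue the 3 C1q chains had lower levels and F5 a higher level in every halofuginone library than in any vehicle library, but no member passed the test within that tissue. Of the 40 members 19 passed the filter on low counts (13 of complement and 6 of coagulation), and the other 21 reached at most 16 counts in any library. None of the 19 was called by edgeR, where 0% of the 14030 genes tested were called, and 6 had an unadjusted p under 0.05 (F5 higher, and C1qa, C1qb, C1qc, F7 and F10 lower), against 13.4% of all genes tested (5.5% higher and 7.91% lower). DESeq2 called 4 members (C1qa, C1qb, C1qc and F5), where it called 3.59% of the 18532 genes with a p-value (1.14% higher and 2.44% lower). That share may again be too low, because genes left without an adjusted p are counted in the total. Groups did not overlap for 7 of the 19 (36.8%, 1 higher and 6 lower), against 20.6% of all genes tested in fat (10.2% higher and 10.4% lower). The median log2 fold change over the members tested was −0.22 for complement and 0.037 for coagulation, against 0.012 over all genes tested in fat, and the coagulation median lay below 0 in other settings (−0.23 by DESeq2).

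C1qa measured 485, 439 and 489 CPM in vehicle fat and 213, 142 and 228 CPM under halofuginone, 2.42-fold lower (log2 fold change −1.28 ± 0.21 SE, adjusted p = 0.123). C1qb measured 597, 543 and 740.2 CPM and 285, 272 and 344 CPM, 2.09-fold lower (log2 fold change −1.06 ± 0.19 SE, adjusted p = 0.141). C1qc measured 558, 524 and 664 CPM and 261, 237 and 281 CPM, 2.24-fold lower (log2 fold change −1.16 ± 0.17 SE, adjusted p = 0.0954). Each chain had all 3 halofuginone libraries below all 3 vehicle libraries, and the ratios between the chains did not pass (C1qa to C1qb log2 difference −0.25, exact p = 0.300, and C1qc to C1qb −0.10, exact p = 0.200, where 3 against 3 cannot go below 0.1). The macrophage markers had lower levels as well: 10 of 12 were tested, all 10 had log2 fold changes below 0 with a median of −1.38, 0 were called, and their summed level was 5259 to 11483 CPM in vehicle and 3909 to 4269 under halofuginone. Of the defining markers Adgre1 was at 334 to 451 CPM in vehicle and 123 to 138 under halofuginone, while Clec4f, the Kupffer cell lectin, was at 0 in all libraries but 1. In bulk tissue fewer macrophages and less C1q RNA per macrophage cannot be told apart.

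F5, the cofactor that speeds thrombin formation, was a minor transcript of vehicle fat at 0.959, 1.50 and 1.96 CPM and measured 11.1, 24.2 and 7.47 CPM under halofuginone. The groups did not overlap, and F5 was 9.64-fold higher (log2 fold change 3.27 ± 0.53 SE, adjusted p = 0.120). F7 and F10, vitamin K-dependent proteases of the clotting chain, were lower (log2 fold changes −0.79 and −0.84, adjusted p = 0.284 and 0.318), with no overlap between groups. F7 measured 38.9, 27.0 and 37.2 CPM in vehicle and 22.4, 23.5 and 13.6 CPM under halofuginone, and F10 23.7, 13.8 and 32.6 and 13.7, 12.6 and 12.8 CPM. F3 had a log2 fold change of −0.24, Pros1 0.31 and Serpinc1 1.37. C3, the highest member in fat by FPKM, measured 2492, 3081 and 1452 CPM in vehicle and 1597, 2008 and 2726 CPM under halofuginone (log2 fold change −0.15 ± 0.33 SE), and Serping1 613, 715 and 520.2 and 551, 553 and 706 CPM (−0.030 ± 0.20 SE), both with overlapping groups. The log2 fold changes of the other complement members tested in fat were 0.76 for C2, 0.25 for C4b, 0.63 for Masp1, −0.22 for Cfb, −0.20 for Cfp, −0.56 for Cfi, −1.17 for C6 and −1.61 for C8g.

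**Figure D4:**
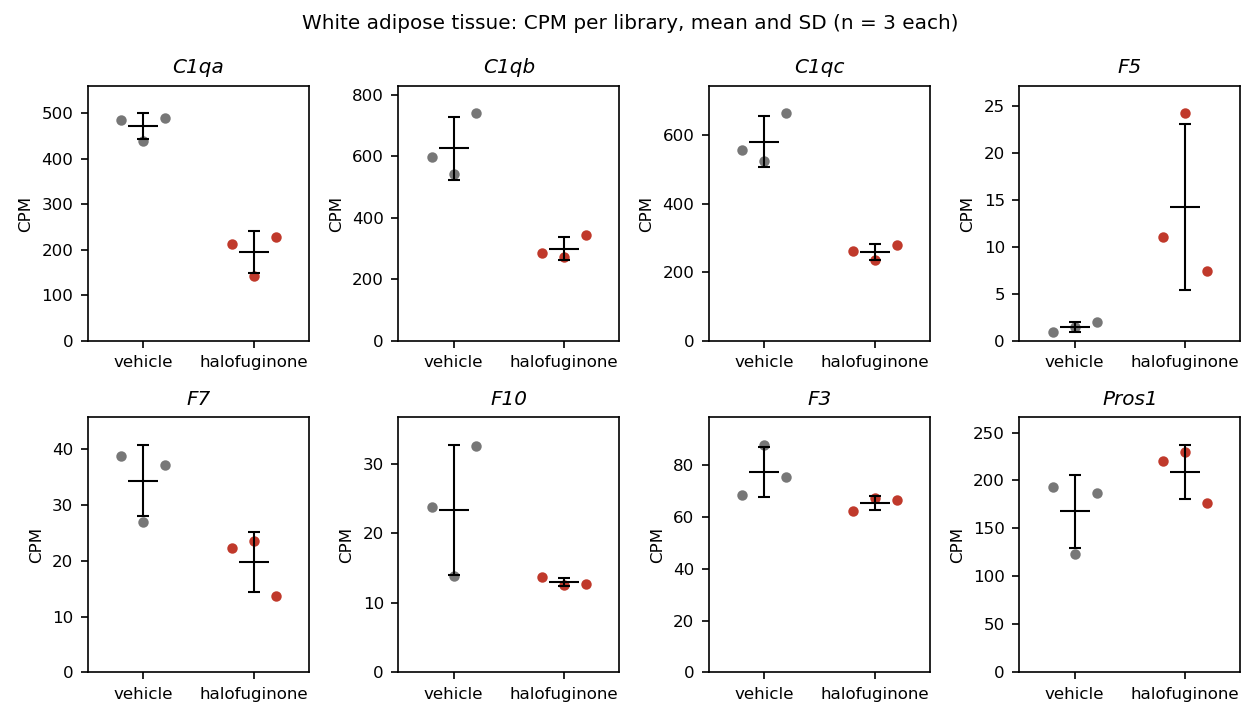
CPM in each white adipose library for 8 members, with the mean and SD of 3 libraries per group, vehicle in grey and halofuginone in red, on axes that start at 0. C1qa, C1qb and C1qc have 3 red points below 3 grey ones and F5 has 3 above, while the Pros1 groups overlap.

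The drug effect in fat was then set against that in liver in 1 fit of all 16 libraries. This fit treats the libraries as independent and gives both tissues 1 shared estimate of spread. Fitted apart, that spread (edgeR's biological coefficient of variation) was 0.229 in liver and 0.337 in fat. The shared fit called 334 genes within fat, where the fit of fat alone called 0, so the contrast may understate the error in fat. Of the 40 members 3 had a different effect in the 2 tissues, where 0.949% of the 14853 genes tested did (0.417% higher in fat and 0.532% lower). For the 21 members that failed the filter in fat, with at most 16 counts in any fat library, a difference was hardly detectable. The effect on C1qa was lower in fat than in liver by a log2 difference of −1.35 ± 0.23 SE (adjusted p = 0.0164), and that on C1qc by −1.16 ± 0.19 SE (adjusted p = 0.0113). C1qb differed by −1.01 ± 0.23 SE and missed the threshold (adjusted p = 0.0518). The effect on F5 was higher in fat than in liver by a log2 difference of 2.93 ± 0.45 SE (adjusted p = 0.00738), with liver values of 823, 845, 822, 729 and 763 CPM in vehicle and 721, 789, 1038, 1099 and 1256 CPM under halofuginone. The effect on C3, called higher in liver, differed by −1.20 ± 0.52 SE (adjusted p = 0.277) and did not pass. A difference between tissues was thus neither shown nor excluded for C3. C1qa, C1qc and F5 kept their calls in each alternative run and when any 1 library was left out. Each of those runs also shared the estimate of spread between the tissues.

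**Figure D5:**
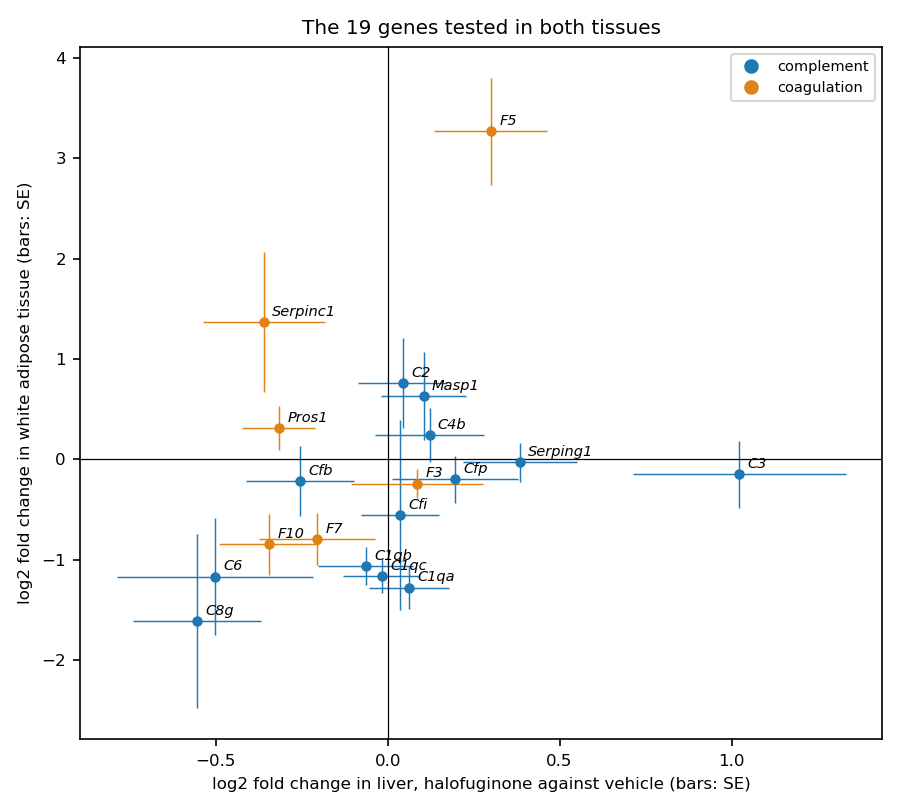
Log2 fold change under halofuginone in liver (horizontal axis) and in white adipose tissue (vertical axis) of the 19 members tested in both, with bars of 1 SE, complement in blue and coagulation in orange. The C1q chains lie near 0 in liver and below −1 in fat, F5 lies at 3.27 in fat and C3 at 1.02 in liver.

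Other genes of the same systems were read from a list of 58 in the tables. In liver 51 were tested and 10 called (19.6%, 2 higher and 8 lower), where 23.2% of all genes tested were called (12.7% higher and 10.5% lower). Without halofuginone replicate 1 the calls were 26 (7 higher and 19 lower), where 42.8% of all genes tested were called (21.2% higher and 21.6% lower). The called genes that were higher were Mcfd2 (log2 fold change 0.63, adjusted p = 0.0322) and Lman1 (0.40, 0.0385), the paired receptors that carry factors V and VIII out of the endoplasmic reticulum. Those lower with the smallest p were Cfd, factor D of the alternative route, Cd93, a receptor of endothelium and myeloid cells (−0.92), Cd59a, which blocks the terminal pore (−1.12), Plau, urokinase (−0.89), and Vwf, von Willebrand factor (−0.77). Cfd, an adipocyte product, went from 13.8 ± 9.55 CPM in vehicle liver to 0.0224 ± 0.0333 CPM (SD, n = 5), under the floor of 3 counts in all 5 halofuginone livers. The summed adipocyte markers in liver were 29.7 to 94.5 CPM in vehicle and 4.37 to 52.3 under halofuginone, a sum that is nearly all Cidec, while Adipoq, Plin1, Lep and Retn were at or near 0 (at most 0.0501 CPM in any liver). Of 5 endothelial markers, Vwf among them, 3 were called lower and 1 higher in liver, and their summed level was 174 to 208 CPM in vehicle and 152 to 206 under halofuginone, with its part in Vwf and Cd93 not tested. In fat 44 were tested and 0 called by edgeR, and 11 were called by DESeq2, which called 3.59% of all genes with a p-value. At an unadjusted p under 0.05 there were 4 higher and 14 lower, where 5.5% of all genes tested were higher and 7.91% lower. Of the 7 complement receptors tested in fat, 6 were among these 14, and those with the smallest p were C5ar1 (log2 fold change −1.57), Itgax (−2.26) and C3ar1 (−1.45), receptors of myeloid cells for C5a, iC3b and C3a, none of them called. The macrophage markers moved beside them in fat (all 10 tested below 0, median −1.38, summed level 5259 to 11483 CPM in vehicle and 3909 to 4269 under halofuginone), and their part in the receptor values was not tested. The smallest p among the higher genes in fat, also uncalled, included those of Cfd (1.88) and C1qbp (0.38).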

How the data were processed

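RNA was measured in 10 liver and 6 white adipose libraries of DIO mice, grouped by their titles into vehicle (labelled HFD) and halofuginone (labelled H100). Per the labels' protocols, mRNA was taken on oligo(dT) beads and made into libraries with a NEBNext Ultra kit and PCR. The submitters' processing notes name fastp 0.18.0, Bowtie2 2.2.8, HISAT2, StringTie 1.3.1, RSEM and the mm39 build without their roles; annotation, strand and handling of duplicates were not given in the sources used here. Per the file headers, the authors deposited a count and an FPKM for each gene and library, with 22322 genes in each tissue's table. The counts are whole numbers, but for 1 to 31 genes per library they are 0 although the FPKM is not, so they may be rounded estimates. Reads shared by near-identical or overlapping genes (C4b, Kng1 and, in the wider list, C1ra and C1s1) may have been split, and those genes are uncertain. Symbols came from a gene-name table, which held 22267 of the identifiers, and 0 value columns were left unmapped.

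The tissues were tested separately in R 4.3.3 by edgeR 4.0.16, with filterByExpr, TMM normalization and the quasi-likelihood functions (two-sided, Benjamini-Hochberg over all genes tested, calls at an adjusted p under 0.05), and the drug effect in fat minus that in liver in 1 fit of all 16 libraries. A standard error is the size of the log2 fold change over the root of its F statistic. Ratios of 2 genes were taken as log2 of the counts with 1 added to each and compared by exact permutation tests. Library totals gave a floor of 3 counts, at most 0.148 CPM in liver and 0.176 CPM in fat, which covers counting error only. Replicates in a group differed beyond sampling noise (smallest chi-square per degree of freedom 31.2 in liver and 53.1 in fat), so each library counted once. Alternatives were DESeq2 1.42.0 and its size factors, scaling by totals alone, robust dispersion, no filter and a stricter filter on counts, 1 fit of all libraries, the replicate number as a block, limma 3.58.1 on log2 FPKM with a pseudocount of 1 or 0.1, and leaving out each library. The code was tested on simulated data. The members, the gene and marker lists and the tests were chosen with earlier results of these data known. Genes named with values per library were the members called in liver or in the contrast of tissues, the 5 highest by FPKM in each tissue's vehicle group and the C1q chains; those of C8g, C9, F7, F10, F13b and Klkb1 were added after their values were seen. From the wider list, up to 5 called genes of each direction with the smallest p were named, or 3 uncalled ones in fat, of which 1 is not reported here. Marker lists (macrophage, hepatocyte, hepatocyte transcription factors, acute phase, endothelium, mesothelium, adipocyte and fibroblast) are given as summed CPM.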

Additional observations from a re-analysis of the deposited data

Results flagged for a closer look

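Over the 80 sets of 5 liver values (40 members in each group), 4 held a library far from the other 4, and about 4 such sets arise by chance at this limit (a gap over 0.71 of the group's range). All 4 were in the halofuginone group, and 3 were replicate 1. C9 was at 461 CPM in replicate 1, where the next library was at 203, and C6 at 220.5, where the next was at 121. C4bp, the inhibitor that was higher in the other 4 livers, was at 506 CPM in replicate 1, where the next was at 1445. Fga was at 19568 CPM in replicate 2, where the next was at 8174.

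The drug effect differed between tissues for C1qa (log2 difference, fat minus liver, −1.35), C1qc (−1.16) and F5 (2.93). That was by edgeR's test of the difference, with 1 estimate of spread for both tissues. All 3 halofuginone fat libraries lay on 1 side of vehicle for each of these genes, while the liver groups overlapped.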

How the results depend on the processing

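Of the members called in liver (3 with all libraries), 5 were called with a stricter filter, with library size alone and with robust dispersion, 6 with limma on FPKM at either pseudocount, 7 with DESeq2, 1 in the fit of all 16 libraries and 0 to 17 when 1 library was left out. In fat, DESeq2 and the fit of all 16 libraries each called 4 members, and in the contrast of tissues DESeq2 called 5. The wider list gave 21 calls in liver by DESeq2 (6 to 26 with 1 library left out) and, in fat, 11 by DESeq2 and 7 in the fit of all 16 libraries. Over all genes, leaving out 1 library gave 1275 to 5312 calls in liver, with the highest count without halofuginone replicate 1 and the lowest without halofuginone replicate 3, and 34 to 1053 in the contrast; fat had 665 calls by DESeq2 and 334 in the fit of all 16 libraries. The complement median in liver was 0.19 with library size alone and 0.16 with either FPKM pseudocount (−0.036 to 0.076 with 1 library left out), and the coagulation median 0.10, 0.093 and 0.096 in the same settings (−0.14 to 0.0041). In fat the coagulation median was −0.23 by DESeq2, −0.24 without a filter, −0.21 in the fit of all 16 libraries, −0.16 and −0.17 with FPKM at pseudocounts of 1 and 0.1, and 0.00023 to 0.10 with 1 library left out, and the complement median −0.61 to −0.069. Log2 fold changes near 0 turned sign with library size alone and with FPKM at pseudocounts of 1 and 0.1: in liver C1qb (0.086, 0.080 and 0.081), C1qc (0.14, 0.13 and 0.13), F2 (0.075, 0.075 and 0.076) and F11 (0.13, 0.11 and 0.12), and in fat Serping1 (0.031, 0.038 and 0.038), while C3 in fat turned with FPKM only (0.11 at both) and Fga to Fgb as an FPKM ratio (0.0036); the cause was not tested. Left-out libraries also turned the sign in liver of C1qa (−0.043 to 0.12), C1qb (−0.21 to 0.00060), C1qc (−0.13 to 0.034), C2 (−0.033 to 0.15), Cfi (−0.0073 to 0.077), F11 (−0.20 to 0.043) and F3 (−0.040 to 0.20), in fat of C3 (−0.40 to 0.099), Cfb (−0.61 to 0.010) and Serping1 (−0.14 to 0.093), and of the liver ratios Fga to Fgb (−0.047 to 0.057) and Mbl1 to Mbl2 (−0.12 to 0.11). The 4 liver ratios that differed numbered 0 to 4 with 1 library left out, where fewer libraries raise the smallest exact p. Replicate numbers did not pair the libraries (correlations of same-numbered deviations −0.156 to 0.0566 in liver and −0.570 to 0.111 in fat). With the replicate number as a block, 1 member was called in liver (Pros1, with C3 at an adjusted p of 0.121, C4bp at 0.0626 and Masp2 at 0.0518), 1901 genes were called in liver in all, 0 ratios differed, 0 genes were called in fat, and in the contrast 3 members remained among 23 genes. Depth limits the 21 members that failed the filter in fat, whose differences were not detectable there.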

Other observations

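The 40 members together held 3.79 to 4.88% of all counts in the vehicle livers. In halofuginone replicates 1 to 5 they held 3.79, 11.5, 7.30, 6.11 and 5.95%. Of these, the 3 fibrinogen chains held 1.28 to 1.98% in vehicle and 1.09, 5.86, 2.98, 2.24 and 2.23% in halofuginone replicates 1 to 5. Alb, the most abundant liver secretory transcript, held 7.84 to 9.66% in vehicle and 7.98, 3.55, 3.17, 6.19 and 5.84% in the same 5 livers. Fibrinogen was thus above Alb by share of counts in replicate 2 alone.

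Counted per library, 24, 27, 29, 29 and 35 of the 40 members lay outside the range of the vehicle livers in halofuginone replicates 1 to 5, where 47.5, 66.9, 65.0, 61.3 and 64.2% of all genes tested did. Replicate 1 thus also held many values outside the vehicle range, and for C4bp, Serping1, F13b, Fgb, Fgg, Klkb1 and Proc it lay beyond that range on 1 side while the other 4 livers all lay beyond it on the other. These shares are descriptions of single libraries and were not tested.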
